A study of Mus musculus with 12 samples.

Results

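The primary, or azurophil, granule of the neutrophil is represented here by 7 genes taken by name from the 13935 rows of the gene table: Mpo, Elane, Prtn3, Ctsg, Ctsc, Prss57 and Ms4a3. Mpo encodes myeloperoxidase, Elane neutrophil elastase, Prtn3 proteinase 3, Ctsg cathepsin G, and Prss57 a further neutrophil serine protease. Ctsc encodes cathepsin C, a cysteine protease, and Ms4a3 a membrane-spanning protein of granulocyte precursors. All 7 passed the filter on low values, and each was followed across 4 groups of libraries.

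Primary granules are filled while the cell is a promyelocyte, and the mRNAs of their enzymes are known to decline as the cell goes on to make secondary and tertiary granules. Myeloperoxidase uses hydrogen peroxide to make hypochlorous acid. Elastase, proteinase 3 and cathepsin G are serine proteases that cathepsin C activates by removing a short N-terminal peptide before they are stored. Mutations in the human counterpart of Elane cause congenital neutropenia, a disease treated with granulocyte colony-stimulating factor (G-CSF).

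RNA was measured in neutrophils that had been sorted from the femoral marrow of mice as cells carrying CD45, CD11b and Ly6G, and then cultured for 8 h. Mice of the genotype Socs3fl/fl, in which loxP sites surround Socs3, gave 3 libraries of cells without addition and 3 of cells given 10 ng/ml mouse recombinant G-CSF; these are called floxed below. LysMcre Socs3fl/fl mice, which add a Cre recombinase driven by the lysozyme 2 gene Lyz2, active in myeloid cells, gave 3 libraries of each kind. Socs3 encodes a feedback inhibitor of the STAT3 signal that G-CSF starts. The titles of the LysMcre libraries with G-CSF omit Socs3fl/fl and contain the word untreated, so these 3 were placed by their description, which reads KO and G_CSF; their genotype and condition labels name LysMCre Socs3fl/fl and G-CSF. Whether the 3 libraries of a group stem from different mice is not labelled, so the spread behind the p-values is that of these libraries and may be technical.

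Depth was 19495754 to 26472118 reads per library. Levels are in normalized counts, gene counts divided by a size factor for each library, in which 3 reads were worth 2.57 to 3.54. Socs3 itself did not follow the genotype label. Without G-CSF it averaged 225 ± 23.1 in floxed and 292 ± 34.5 in LysMcre libraries (SD, n = 3 each), and with G-CSF 19504 and 37335, so it was higher under the knockout label (limma, log2 difference 0.94, adjusted p = 1.06e-06). The counts cover the whole gene and do not separate the floxed part, so they do not check the deletion, and the groups are called LysMcre-labelled below. Lyz2, the gene that carries Cre, was 36.8-fold lower in LysMcre-labelled cells without G-CSF. The sorted cells carried neutrophil markers throughout: S100a8 stood at 311649 to 596672 normalized counts, S100a9 at 464576 to 866023 and Ly6g at 6505 to 11158, and all 9 listed neutrophil markers were measured.

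In the mm10 build with GENCODE M21 annotation, 3 of the genes lie close together on chromosome 10: Prss57 at 79781474 to 79790961 on the minus strand, Prtn3 at 79874476 to 79883174 and Elane at 79886247 to 79888215 on the plus strand. Prtn3 ends 3.07 kb before Elane begins, and the 3 genes span 106.7 kb. Lyz2 lies on the same chromosome, 37.4 Mb from Elane. The other members are alone on their chromosomes: Mpo on chromosome 11 at 87793581 to 87804413, Ctsg on chromosome 14 at 56099881 to 56102574, Ctsc on chromosome 7 at 88278085 to 88310888 and Ms4a3 on chromosome 19 at 11629496 to 11640851. The files give gene totals, so exons and introns could not be told apart. Prss57 shares 1157 bp with Fstl3 on the other strand, and Prtn3 shares 159 bp with Plppr3. Gm11505 lies inside Mpo on the other strand, at group means of 41.1 to 53.7 normalized counts. How the counting treated strand is not given in the sources used here, and reads in these shared stretches are uncertain.

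Sequences before the RefSeq start of 5 members are shown because they share a short motif. RefSeq promoter windows (GRCm38.p6) were matched for 6 of the 7 genes, and in the 250 bases before the RefSeq start AGGAAGT, in capitals, occurred in 5 of the 6, on either strand. In Ctsc it is read as ACTTCCT on the printed strand. The motif holds the GGAA core bound by ETS-family factors such as PU.1, the product of Spi1. It was chosen after the promoters had been read, and it occurs in 2107 of 27025 such windows, or 7.8%. Printing stops at the first base of an annotated exon, so some stretches are shorter. The Prtn3 stretch lies inside the GENCODE span of Prtn3 given above, since the RefSeq start is downstream of the start of that span. Where the motif stands is a description of letters and not a measured binding site.
Mpo, chr11:87793534-87793580, plus strand: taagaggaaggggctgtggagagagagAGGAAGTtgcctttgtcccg
Elane, chr10:79886062-79886246, plus strand: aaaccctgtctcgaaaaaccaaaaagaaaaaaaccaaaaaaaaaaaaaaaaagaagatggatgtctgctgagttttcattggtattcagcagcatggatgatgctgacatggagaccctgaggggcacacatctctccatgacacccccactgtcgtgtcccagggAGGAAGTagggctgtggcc
Prtn3, chr10:79879417-79879613, plus strand: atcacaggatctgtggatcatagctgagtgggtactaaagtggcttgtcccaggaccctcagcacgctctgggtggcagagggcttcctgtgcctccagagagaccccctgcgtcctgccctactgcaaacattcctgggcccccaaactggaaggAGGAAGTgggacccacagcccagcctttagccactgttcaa
Ctsg, chr14:56102575-56102824, minus strand: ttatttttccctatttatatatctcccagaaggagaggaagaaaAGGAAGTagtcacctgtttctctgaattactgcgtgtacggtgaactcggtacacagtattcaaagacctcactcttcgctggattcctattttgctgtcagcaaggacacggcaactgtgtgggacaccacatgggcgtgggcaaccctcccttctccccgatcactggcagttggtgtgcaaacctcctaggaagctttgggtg
Ctsc, chr7:88277835-88278084, plus strand: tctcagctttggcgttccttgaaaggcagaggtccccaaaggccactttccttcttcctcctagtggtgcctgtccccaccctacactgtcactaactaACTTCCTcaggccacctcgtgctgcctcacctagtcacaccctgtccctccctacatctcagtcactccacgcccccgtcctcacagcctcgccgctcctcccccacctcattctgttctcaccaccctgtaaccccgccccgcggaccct
A C/EBP-type motif, TTGCNNAA, searched on both strands, was in none of the 6 windows and in 9.53% of all. A STAT-type motif, TTCNNNGAA, which reads the same on both strands, was in the windows of Ctsg and Ctsc and in 7.11% of all. Neither search says anything about the factors themselves.

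Per kilobase of exon, Mpo and Elane were the most abundant of the 7 without G-CSF and Prss57 the least. In floxed cells Mpo stood at 1474 ± 550 normalized counts per kb and Elane at 1457 ± 563 (SD, n = 3), which did not differ beyond their spread. Ctsg at 701 ± 284 and Prtn3 at 622 ± 206 followed, also within each other's spread between libraries, although Ctsg stood above Prtn3 in each of these 3 libraries. Ms4a3 at 135 ± 53.8, Ctsc at 101 ± 22.0 and Prss57 at 83.9 ± 10.2 normalized counts per kb came last, neighbours again within their spread. Mpo was above 95.3% of the 13513 annotated genes per kb in these cells and Prss57 above 52.8%. With G-CSF the order at the top was Elane, Mpo, Prtn3, Ctsg in all 6 libraries, whereas Mpo led in 5 of the 6 libraries without it. In floxed cells with G-CSF Elane reached 2286 ± 435 normalized counts per kb against 1743 ± 294 for Mpo, and Ctsc at 406 ± 58.1 passed Ms4a3 at 314 ± 50.7. Prss57 stayed last, at 59.0 ± 7.41 in floxed and 26.3 ± 2.41 in LysMcre-labelled cells.

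**Figure D1:**
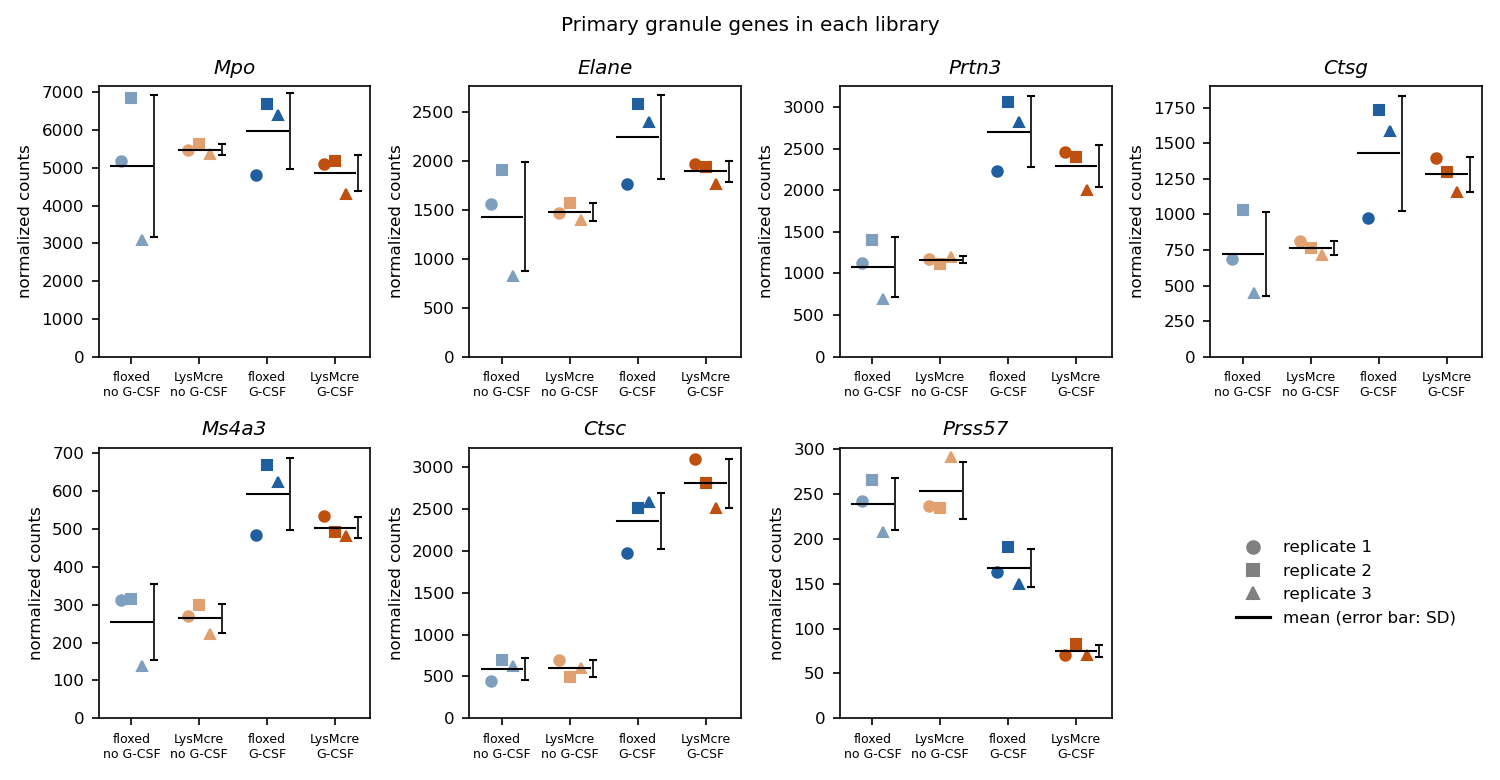
Normalized counts of the 7 genes (vertical axes, linear and starting at 0) in each of the 12 libraries, by genotype label and G-CSF; symbols mark the replicate number, the horizontal line the group mean and the bar its SD. Ctsc, Prtn3 and Ms4a3 are higher in every library with G-CSF than in any without, and Prss57 is lowest, at 70.5 to 82.6, in LysMcre-labelled cells with G-CSF.

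Without G-CSF none of the 7 genes differed between the genotypes. Mpo, the peroxidase, was measured at 5190, 6854 and 3097 normalized counts in the floxed libraries 1, 2 and 3 and at 5469, 5634 and 5360 in the LysMcre-labelled ones. The LysMcre-labelled values lie inside the floxed range, and the groups of all 7 genes overlapped, where 9.34% of all genes had groups apart. Differences were 0.19 for Mpo (95% interval -0.24 to 0.63), 0.13 for Elane, 0.17 for Prtn3, 0.16 for Ctsg, 0.04 for Ctsc, 0.09 for Prss57 and 0.14 for Ms4a3 on the log2 scale, each with a limma adjusted p of 1.0. Over all genes tested, 0.115% were called in this comparison (0.0647% higher and 0.0503% lower), 16 of 13915, with 465 at an unadjusted p under 0.05; the members' median difference was 0.14 and that of all genes -0.01. DESeq2 and edgeR on the recovered reads also called 0 of the 7, and 28 and 13 genes in all. Most of the small positive values rested on 1 library: without floxed replicate 3 they turned negative for Mpo (-0.12), Elane (-0.22), Prtn3 (-0.11), Ctsg (-0.14), Ms4a3 (-0.25) and Prss57 (-0.0061). Ctsc stayed positive there, at 0.092, and turned negative without replicate 1 of floxed (-0.15) or LysMcre-labelled cells (-0.081). Prss57 also turned negative without LysMcre-labelled replicate 3 (-0.013).

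In floxed cells, 8 h of G-CSF went with more mRNA of the granule proteases and less of Prss57. Of the 7 genes 5 rose and 1 fell, in a comparison in which 48.8% of all genes were called, 24.1% higher and 24.6% lower. The members' median difference was 1.02 on the log2 scale, against 0.00 for all genes. In whole sorted populations fewer cells of a type and less RNA per cell cannot be told apart.

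Ctsc, the activating protease, rose most. It went from 447, 695 and 622 normalized counts in the floxed libraries without G-CSF to 1971, 2515 and 2588 with it. The groups do not overlap, and the rise was 4.05-fold (95% interval 3.21 to 5.09; limma, adjusted p = 3.29e-08). In LysMcre-labelled cells Ctsc went from 700, 499 and 598 to 3104, 2809 and 2515, again without overlap. That rise was 4.71-fold (3.74 to 5.93; adjusted p = 4.82e-09).

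Among the serine proteases that rose, Prtn3 had the largest difference in each genotype. Its values were 1129, 1406 and 697 normalized counts in floxed cells without G-CSF and 2233, 3061 and 2816 with it, groups that do not overlap. The log2 difference was 1.37 ± 0.19 (SE; limma, adjusted p = 1.59e-05), a 2.59-fold rise on the log2(value + 1) scale used for every difference here. In LysMcre-labelled cells the values were 1175, 1117 and 1200 without and 2459, 2401 and 1997 with G-CSF, also apart, a log2 difference of 0.97 ± 0.19 (adjusted p = 0.000301).

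Ctsg was measured at 687, 1034 and 450 normalized counts in floxed cells without G-CSF and 974, 1734 and 1584 with it. The lowest treated library lay under the highest untreated one. The difference passed the test, at 1.02 ± 0.24 on the log2 scale (limma, adjusted p = 0.00215). In LysMcre-labelled cells Ctsg went from 814, 766 and 714 to 1397, 1296 and 1155, without overlap, by 0.74 ± 0.24 (adjusted p = 0.0129). Scaled to equal library totals, that last difference was 0.48 and no longer passed (adjusted p = 0.114).

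Elane lay between Ctsg and Mpo. In floxed cells it was at 1564, 1911 and 825 normalized counts without G-CSF and at 1766, 2581 and 2401 with it, with overlap between the groups. The log2 difference was 0.72 ± 0.22 (limma, adjusted p = 0.0133). It was 0.36 without untreated floxed replicate 3 (adjusted p = 0.0369), and without the treated floxed replicate 2 it was 0.61 and missed the threshold (adjusted p = 0.0624). In LysMcre-labelled cells Elane was at 1474, 1576 and 1395 without and 1973, 1946 and 1773 with G-CSF. These groups do not overlap, but the difference of 0.36 ± 0.22 did not pass the test that shares its spread over all 4 groups (adjusted p = 0.173). It passed when only those 2 groups were fitted (adjusted p = 0.000736) and without untreated floxed replicate 3 (adjusted p = 0.016).

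Mpo did not pass in either genotype. In G-CSF libraries Mpo read 4818, 6687 and 6399 normalized counts in floxed and 5100, 5190 and 4308 in LysMcre-labelled cells. The floxed groups overlap, and the 3 LysMcre-labelled libraries with G-CSF all lie below the 3 without. Differences were 0.30 (95% interval -0.13 to 0.73; limma, adjusted p = 0.244) and -0.18 (-0.61 to 0.26; adjusted p = 0.469) on the log2 scale. The floxed value depended on single libraries: it was 0.56 and passed without untreated replicate 2 (adjusted p = 0.0165), and it was -0.014 without untreated replicate 3.

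Ms4a3, the membrane protein, followed Prtn3 closely. In floxed cells it went from 311, 314 and 137 to 484, 667 and 623 normalized counts, without overlap, a 2.46-fold rise (1.72 to 3.50; limma, adjusted p = 0.000317). In LysMcre-labelled cells it went from 269, 300 and 223 to 535, 492 and 482, a 1.91-fold rise (1.34 to 2.73; adjusted p = 0.00303).

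Prss57 was the member that fell. It was at 242, 266 and 208 normalized counts in floxed cells without G-CSF and at 162, 191 and 150 with it. The groups do not overlap, and the log2 difference was -0.51 ± 0.13 (limma, adjusted p = 0.00491), a 1.42-fold fall. In LysMcre-labelled cells it went from 237, 234 and 291 to 70.5, 82.6 and 70.9, which came from 61 to 70 reads per library. That fall was 3.36-fold (2.76 to 4.08; adjusted p = 1.29e-08).

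In LysMcre-labelled cells 4 members rose with G-CSF and 1 fell, where 62.6% of all genes were called, 31.1% higher and 31.6% lower. The members' median was 0.74 and that of all genes -0.00. All 7 had groups without overlap, against 67.6% of all genes, and in floxed cells 4 of 7 did, against 56.0%. The genotype and G-CSF comparisons share libraries, so each is given with its own values and no overlap between them is counted.

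**Figure D2:**
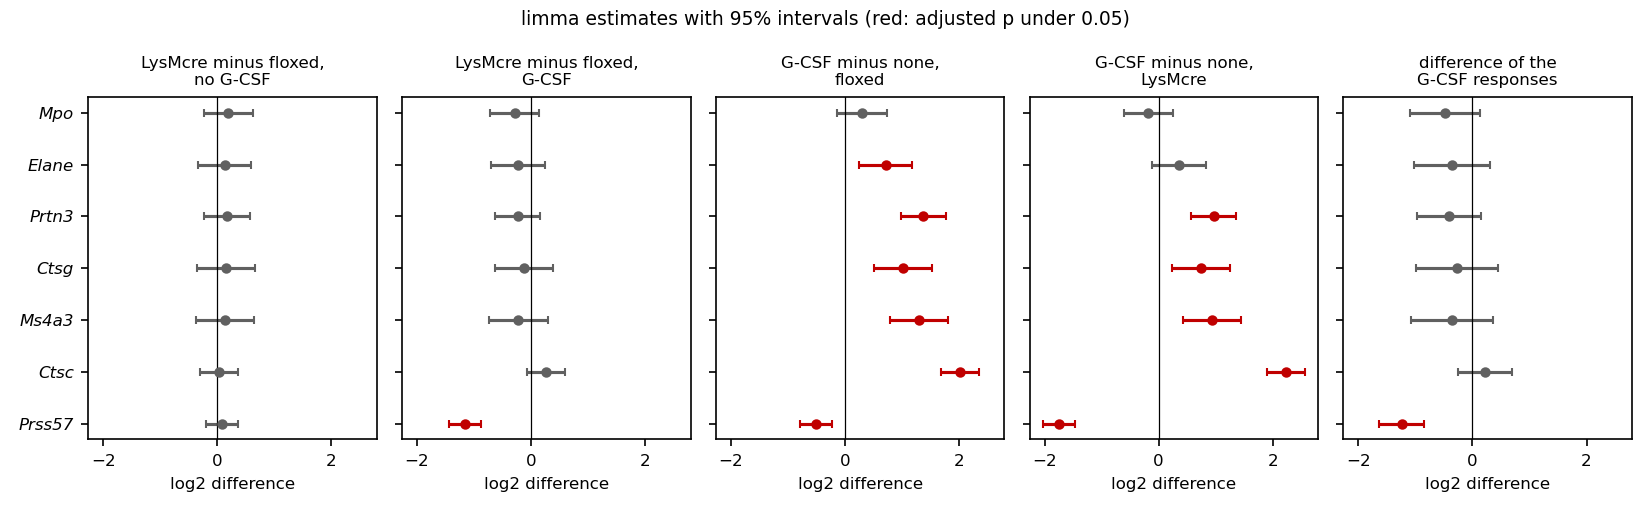
Log2 differences of the 7 genes (horizontal axes, same scale in each panel) with their 95% intervals from limma, for the 5 comparisons; red marks an adjusted p under 0.05. Prss57 is at -1.15 in the genotype comparison with G-CSF and at -1.24 in the difference of the responses, the red points in those panels.

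With G-CSF, Prss57 was the member that differed between genotypes. Its mean was 74.6 ± 6.86 normalized counts in LysMcre-labelled and 168 ± 21.1 in floxed cells (SD, n = 3 each), and the groups do not overlap. It was 2.22-fold lower under the LysMcre label (95% interval 1.83 to 2.71; limma, adjusted p = 6.16e-06). This 1 of 7 stands against 36.0% of all genes called, 17.1% higher and 18.9% lower, and 1 of 7 members had groups without overlap against 45.5% of all genes. The members' median difference was -0.23 and that of all genes -0.01. Without untreated floxed replicate 3 and treated floxed replicate 1, both chosen for their low member levels, 6 members were called lower where 32.2% of all genes were called and 16.6% were lower, which supports nothing because of that choice.

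The intervals of the other 6 members with G-CSF all include 0. They were -0.72 to 0.15 for Mpo, -0.70 to 0.24 for Elane, -0.63 to 0.16 for Prtn3 and -0.63 to 0.39 for Ctsg on the log2 scale. For Ms4a3 the interval was -0.73 to 0.29 and for Ctsc -0.07 to 0.59. Ctsc alone of the 7 had a positive estimate, 0.26 (limma, adjusted p = 0.221), from 2358 ± 337 in floxed to 2810 ± 294 normalized counts in LysMcre-labelled cells. Single libraries moved these estimates. Without treated floxed replicate 1 they were -0.43 for Mpo, -0.39 for Elane, -0.37 for Prtn3, -0.37 for Ctsg, -0.36 for Ms4a3 and 0.13 for Ctsc, and without treated floxed replicate 2 they were -0.12 for Elane, -0.14 for Prtn3, 0.042 for Ctsg and -0.13 for Ms4a3. None of these passed the test.

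The response to G-CSF itself differed between genotypes for Prss57. Its log2 response was -1.75 in LysMcre-labelled and -0.51 in floxed cells, a difference of -1.24 ± 0.19 (SE; limma interaction term, adjusted p = 0.00019), and it passed in 23 of 23 alternative settings, with adjusted p between 5.95e-07 and 0.00125. Over all genes 22.4% were called for this term, 10.9% higher and 11.5% lower. The other members did not pass: Mpo -0.48 (95% interval -1.09 to 0.13), Elane -0.36 (-1.02 to 0.30), Prtn3 -0.41 (-0.97 to 0.16), Ctsg -0.28 (-0.99 to 0.44), Ms4a3 -0.36 (-1.08 to 0.36) and Ctsc 0.22 (-0.25 to 0.69). Mpo reached -0.74 and passed without untreated floxed replicate 2 (adjusted p = 0.0381), which made 2 called members. Without untreated floxed replicate 3 the differences of responses were -0.16 for Mpo, -0.0044 for Elane, -0.12 for Prtn3, 0.025 for Ctsg and 0.033 for Ms4a3, and without replicate 2 they were -0.61 for Elane, -0.63 for Prtn3, -0.57 for Ctsg and -0.56 for Ms4a3. For Ctsc it was 0.087 without untreated floxed replicate 2 and 0.095 without treated floxed replicate 1, and for Ctsg -0.53 and -0.12 without treated floxed replicate 1 or 2.

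Because Fstl3 overlaps the 3' end of Prss57 on the opposite strand, its values belong beside those of Prss57. Fstl3 encodes a secreted binding protein of activins. It averaged 86.6 ± 1.53 and 98.8 ± 13.7 normalized counts without G-CSF in floxed and LysMcre-labelled cells, and 90.7 ± 12.5 and 41.4 ± 6.58 with it. It did not pass in floxed cells (log2 difference 0.06; limma, adjusted p = 0.806), while Prss57 fell there. In the other comparisons with G-CSF it went with Prss57. Its log2 difference between genotypes was -1.11 (limma, adjusted p = 7.26e-05), its response in LysMcre-labelled cells -1.24 (adjusted p = 8.02e-06) and the difference of the responses -1.29 (adjusted p = 0.000813), against -1.24 for Prss57. How many reads the pair shares was not tested.

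Relative to Mpo in the same library, the proteases and Ms4a3 stood higher in every library with G-CSF than in any without it, except Prss57, which stood lower. Prtn3 stood at 0.198 to 0.225 of the Mpo count in the 6 libraries without G-CSF and at 0.440 to 0.482 in the 6 with it. Elane stood at 0.260 to 0.301 and 0.367 to 0.411, and Ctsg at 0.132 to 0.151 and 0.202 to 0.274. No ratio of these 3 overlapped between libraries with and without G-CSF, although the levels of Elane and Ctsg did in floxed cells. Ms4a3 to Mpo was 0.042 to 0.060 against 0.095 to 0.112. Ctsc to Mpo was 0.086 to 0.201 without G-CSF, 0.376 to 0.409 in floxed and 0.541 to 0.609 in LysMcre-labelled cells with it. Prss57 to Mpo went the other way, 0.039 to 0.067 without G-CSF, 0.023 to 0.034 in floxed and 0.014 to 0.016 in LysMcre-labelled cells with it. Prtn3 counts were 0.709 to 0.861 of Elane counts without and 1.13 to 1.26 with G-CSF. The order of this neighbouring pair thus turned over in counts that are not divided by gene length. Per kb of exon it did not turn over, and Elane stood above Prtn3 in every library. Exon lengths were 984 bp for Elane and 1732 bp for Prtn3. These ratios were chosen after the values had been seen and carry no test, and a ratio shows unequal change, not which gene of the pair moved.

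**Figure D3:**
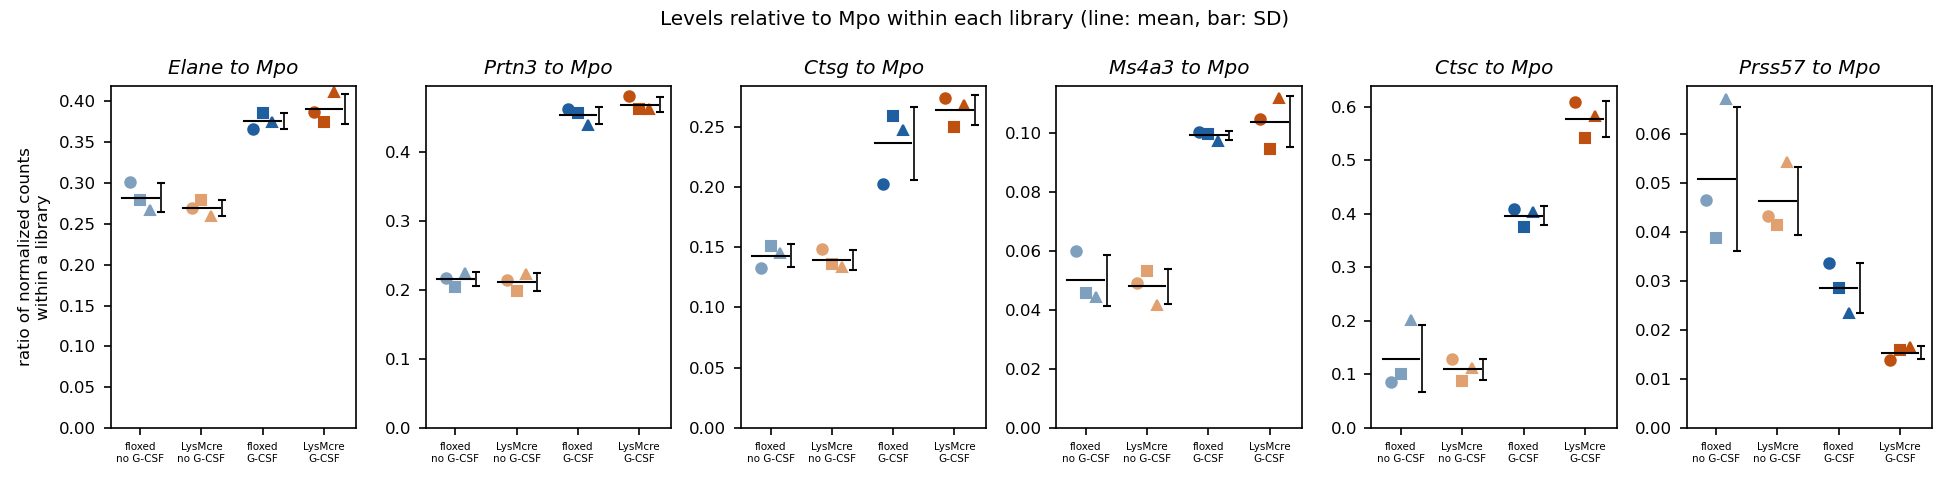
Ratio of each gene's normalized count to that of Mpo in the same library (vertical axes, linear from 0) for 12 libraries; circles, squares and triangles are replicates 1, 2 and 3, lines are group means and bars SDs. Prtn3 to Mpo lies at 0.198 to 0.225 in the libraries without G-CSF and at 0.440 to 0.482 in those with it, while Prss57 to Mpo is lowest in LysMcre-labelled cells with G-CSF.

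Within groups, Mpo, Elane, Prtn3, Ctsg and Ms4a3 deviated in the same direction in floxed libraries. Untreated floxed replicate 3 lay under its group mean by a log2 deviation of -0.63 for Mpo, -0.71 for Elane, -0.57 for Prtn3, -0.60 for Ctsg and -0.79 for Ms4a3. In the same library Prss57 deviated by -0.19 and Ctsc by 0.11. Of the 9125 genes with a mean of at least 100 normalized counts, 32 (0.351%) were at least 0.5 below their group mean there, and 5 of those 32 were these members. In floxed replicate 1 with G-CSF the members' median deviation was -0.27, with Ctsg at -0.51, and 95 of the 9125 genes (1.04%) were that far below. All genes' median deviation was 0.00 in the first of these libraries and 0.02 in the second.

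The spread of these genes between libraries was wide compared with most. Their pooled SD was 0.33 for Mpo, 0.35 for Elane, 0.30 for Prtn3, 0.38 for Ctsg and 0.38 for Ms4a3 on the log2 scale, against a median of 0.14 over all genes. Ctsc was at 0.24 and Prss57 at 0.17. The ratios taken inside a library had pooled SDs of 0.06 for Mpo to Prtn3 and 0.06 for Mpo to Elane, the smallest among the member pairs. Mpo to Ctsg was at 0.12, Mpo to Ms4a3 at 0.16, Mpo to Prss57 at 0.27 and Mpo to Ctsc at 0.36. The widest pair was Ctsc to Ms4a3, at 0.46. The spread was unequal between groups: for Mpo the SD was 0.58 in untreated floxed and 0.04 in untreated LysMcre-labelled cells. As the shared deviation enters the test of every one of these genes, their calls are not independent of each other.

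**Figure D4:**
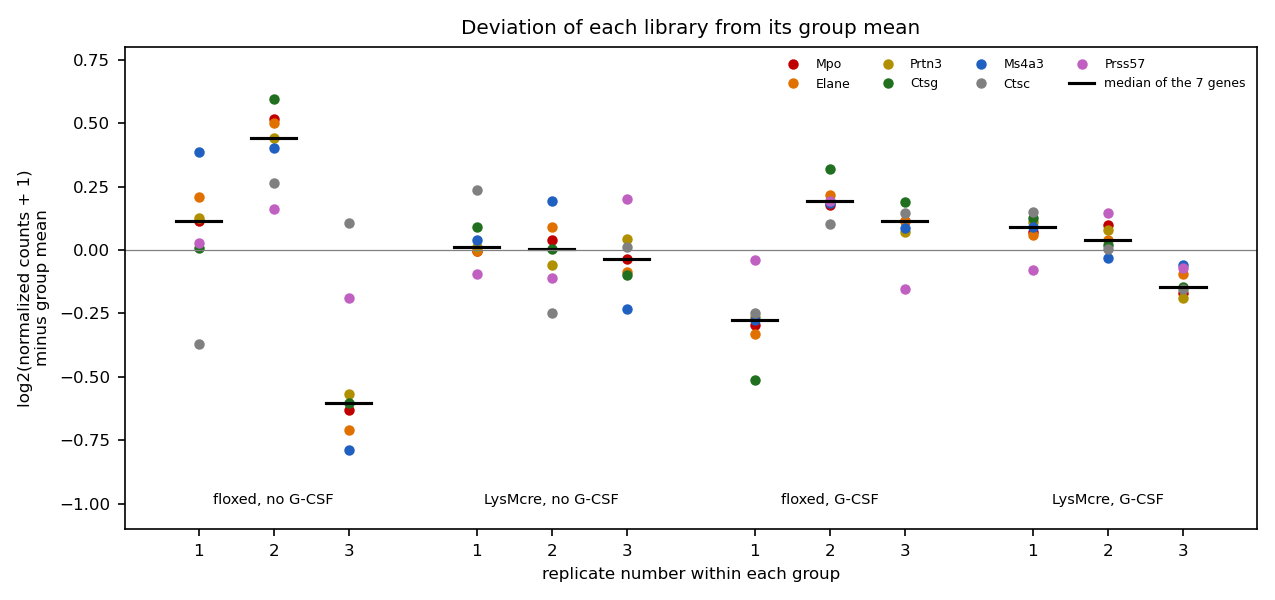
Deviation of each library from its group mean on the log2(normalized counts + 1) scale (vertical axis) for the 7 genes, by replicate number (horizontal axis); the black bar is the median of the 7. In floxed replicate 3 without G-CSF 5 genes lie between -0.57 and -0.79, while Ctsc is at 0.11.

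Markers of neutrophils, of other cells and of earlier stages were set beside these values. Of all genes, 24.1% rose and 24.6% fell with G-CSF in floxed cells, and 31.1% and 31.6% in LysMcre-labelled cells. Of 9 neutrophil markers, 6 rose with G-CSF in floxed cells (S100a8, S100a9 and Csf3r among them) and 3 fell (Cxcr4, Itgam and Ly6g), and the same 6 rose and Cxcr4 and Itgam fell in LysMcre-labelled cells (limma). Their sum was 1003638 to 1114649 normalized counts in the 6 libraries without G-CSF, 1433381 to 1659386 in floxed and 1692910 to 1851678 in LysMcre-labelled libraries with it. Such a sum is weighted toward its highest genes: S100a9 alone gave 522273 of the 1114649 in untreated floxed replicate 1. Proliferation markers moved with G-CSF: 11 of 12 rose in floxed and 11 of 12 in LysMcre-labelled cells (limma), while Tk1, named after its values were seen, fell in both. Their summed level was 9726 to 12961 normalized counts in floxed and 10323 to 11319 in LysMcre-labelled cells without G-CSF, and 14248 to 15501 and 14156 to 15457 with it. Untreated floxed replicate 3 had the lowest of these sums, 9726, and the lowest Mki67, 3508.

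Of 15 promyelocyte and progenitor markers, 2 rose and 5 fell with G-CSF in floxed cells, where 24.1% of all genes rose and 24.6% fell. Among LysMcre-labelled libraries 3 rose and 7 fell, against 31.1% and 31.6%. The 15 summed to 25916 to 28744 and 26307 to 27031 normalized counts without G-CSF, and 24787 to 26839 and 22987 to 25564 with it. Hmgn2 alone gave 13767 of the 28744 in untreated floxed replicate 1, so the sum follows its highest genes. Kit, the stem cell factor receptor, stood at 724 to 845 normalized counts in the 6 libraries without G-CSF, at 2760 to 3120 in floxed and at 5986 to 6356 in LysMcre-labelled libraries with it. Fcnb, a promyelocyte-stage gene, went the other way. Without G-CSF it was at 702 to 1179 in floxed and 740 to 883 in LysMcre-labelled libraries. The ranges with G-CSF were 443 to 520 and 255 to 336. None of the 15 was at 0 in any library.

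Markers of eosinophils, basophils and mast cells, which also carry granule proteases, summed to 2100 to 5990 and 4530 to 6039 normalized counts without G-CSF and to 3511 to 7061 and 5014 to 5114 with it; 3 of 10 rose in floxed and 1 of 10 in LysMcre-labelled cells. The lowest sums were in floxed replicate 1 of each treatment, 2100 and 3511. Monocyte and macrophage markers summed to 20183 to 30931 over the 12 libraries, with 4 of 10 higher and 2 lower in floxed and 3 higher and 2 lower in LysMcre-labelled cells. Floxed replicate 1 with G-CSF also had the lowest monocyte sum, 20183, and the lowest sum of B, T, NK and dendritic cell markers, 6002 in a range of 6002 to 17231. Ighm alone gave 14393 of the 17231, in untreated LysMcre-labelled replicate 1. Of 10 B, T, NK and dendritic cell markers measured, 1 fell in floxed and 3 fell in LysMcre-labelled cells. Of 7 erythroid and platelet markers none was called by limma in any comparison. The shares of all genes were 24.1% higher and 24.6% lower in floxed and 31.1% and 31.6% in LysMcre-labelled cells. No marker of these lists was called between genotypes without G-CSF, where 0.115% of all genes were. None that was measured was at 0 in a library. The part of any of these cells or stages in the members' values was not tested.

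The genes around Prss57, Prtn3 and Elane did not move as one. Within 100 kb of the 3 genes 17 others were tested, of which 4 rose and 2 fell with G-CSF in floxed cells, where 24.1% of all genes rose and 24.6% fell. In LysMcre-labelled cells 4 rose and 7 fell, against 31.1% and 31.6% of all genes. Between genotypes with G-CSF 3 were higher and 6 lower, against 17.1% and 18.9%. The response to G-CSF was more positive in LysMcre-labelled cells for 1 neighbour, Bsg (0.37), and more negative for 4, against 10.9% and 11.5% of all genes. The 4 were Palm (-1.64), Fstl3 (-1.29), R3hdm4 (-0.80) and Kiss1r (-0.78), the same direction as Prss57; Bsg and Kiss1r are named after their values were seen. Palm, a membrane-associated phosphoprotein gene next to Prss57, averaged 5967 ± 346 and 5979 ± 574 normalized counts without G-CSF in floxed and LysMcre-labelled cells and 3248 ± 425 and 1037 ± 36.9 with it. It fell in both genotypes, as Prss57 did, with log2 differences of -0.88 (limma, adjusted p = 5.31e-07) and -2.52 (adjusted p = 1.22e-12). Plppr3, beside Prtn3 and overlapping it by the 159 bp given above, averaged 167 ± 31.0 and 180 ± 23.6 without and 403 ± 18.2 and 396 ± 28.8 with G-CSF. Ptbp1, an RNA-binding protein gene on its far side, rose by 0.70 in floxed cells (adjusted p = 3.27e-08). R3hdm4, beyond Elane, was 0.12 with G-CSF in floxed cells (adjusted p = 0.213) and -0.84 between genotypes with G-CSF (adjusted p = 6.5e-07).

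**Figure D5:**
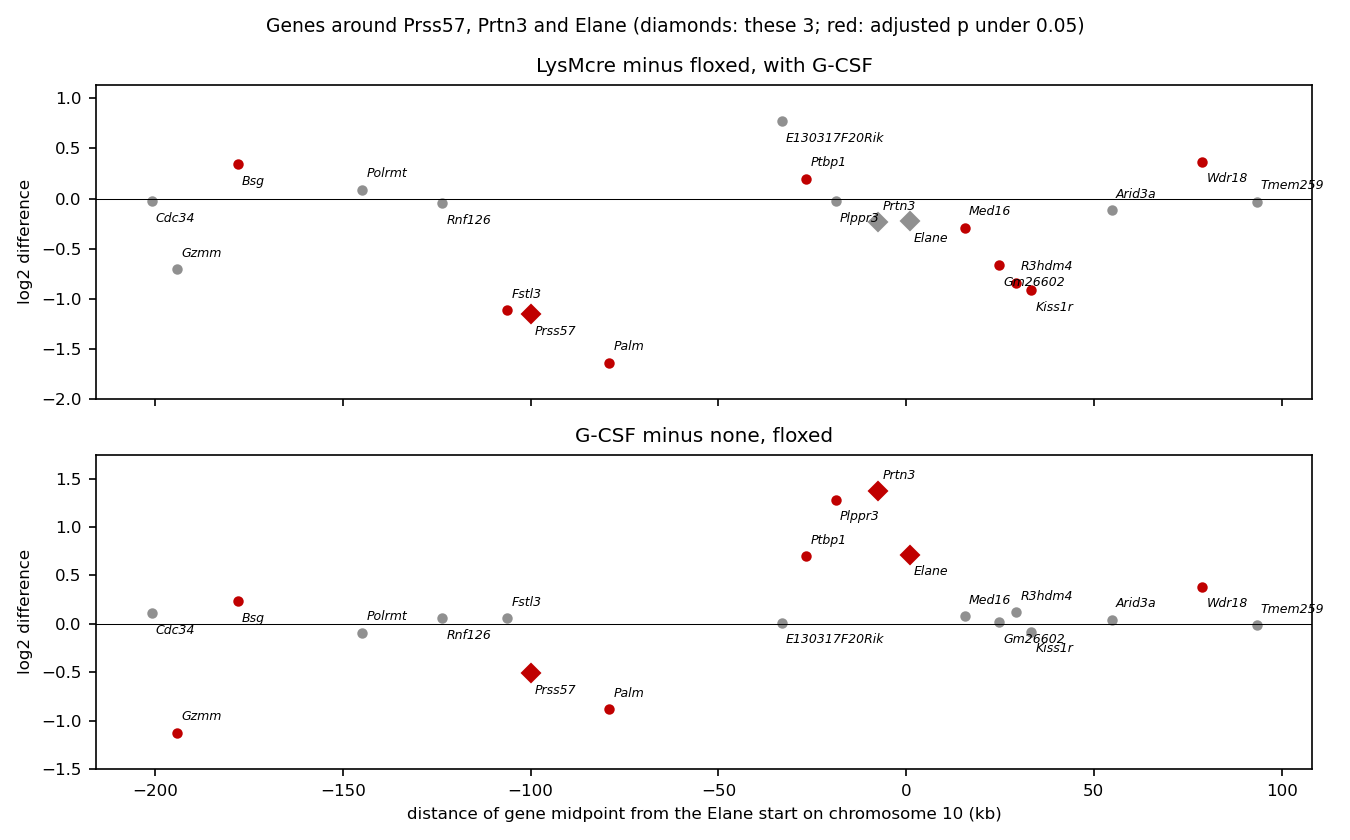
Log2 differences (vertical axes) of the tested genes around Prss57, Prtn3 and Elane, by distance of each gene's midpoint from the Elane start in kb (horizontal axis); the upper panel compares genotypes with G-CSF and the lower panel G-CSF with none in floxed cells, diamonds are the 3 members and red marks an adjusted p under 0.05. Prss57 and Palm lie below 0 in both panels, and Prtn3, Plppr3, Ptbp1 and Elane above 0 in the lower one.

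Other cargo of primary granules and lysosomes was split. Of 19 such genes measured, 6 rose and 8 fell with G-CSF in floxed cells (limma), where 24.1% of all genes rose and 24.6% fell. Among LysMcre-labelled libraries 8 rose and 8 fell, against 31.1% and 31.6%. Medians were -0.03 and -0.07 on the log2 scale. Lyz2, lysozyme, averaged 222593 ± 3235 normalized counts in floxed cells without and 46227 ± 2464 with G-CSF, a 4.82-fold fall, and Lyz1 fell beside it from 2062 ± 91.4 to 454 ± 25.7. Reads of this near-identical pair are uncertain. Ctsb, cathepsin B, rose from 4674 ± 232 to 14264 ± 572 in floxed and from 4788 ± 289 to 27954 ± 390.0 in LysMcre-labelled cells. Between genotypes without G-CSF only Lyz2 and Lyz1 were called among the 19, where 0.115% of all genes were called. With G-CSF 8 of the 19 were higher and 6 lower in LysMcre-labelled cells, against 17.1% and 18.9% of all genes. Cd63, a granule membrane protein, was at 7594 ± 946 in LysMcre-labelled cells against 3324 ± 175 in floxed cells.

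Of the inhibitors of these proteases, 4 of 8 measured rose and 2 fell with G-CSF in floxed cells, against 24.1% and 24.6% of all genes. Among LysMcre-labelled libraries 5 rose and 2 fell, against 31.1% and 31.6%. Medians were 0.43 and 0.52. Cst7, cystatin F, an inhibitor of cathepsin C, went from 65.4 ± 27.4 to 246 ± 44.2 normalized counts in floxed and from 88.4 ± 4.18 to 249 ± 42.9 in LysMcre-labelled cells (adjusted p = 9.22e-06 and 0.000112). Serpinb6a, which inhibits cathepsin G, fell from 569 ± 64.3 to 327 ± 7.27 in floxed cells. Between genotypes with G-CSF, 17.1% of all genes were higher and 18.9% lower. Of the inhibitors 1 was higher there, Cstb at 2219 ± 194 against 1124 ± 90.1, and 2 were lower. Serpinb1a, an inhibitor of elastase, was one of these, at 6625 ± 803 against 7939 ± 441 (adjusted p = 0.0347, passing in 17 of 23 settings).

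Among 13 genes of granule packaging, sorting and congenital neutropenia, 5 rose and 3 fell with G-CSF in floxed cells. Of all genes 24.1% rose and 24.6% fell there. For LysMcre-labelled libraries 6 rose and 3 fell, against 31.1% and 31.6%. Medians were 0.01 and 0.24. Srgn encodes serglycin, the proteoglycan that holds elastase in the granule. It averaged 6471 ± 266 normalized counts in floxed cells without and 47057 ± 3262 with G-CSF, and 6514 ± 866 and 123821 ± 4403 in LysMcre-labelled cells, a log2 response that differed by 1.40 between genotypes (limma interaction, adjusted p = 1.34e-06). Unc13d, which primes granules for release, fell from 7049 ± 201 to 4135 ± 560.3 in floxed and from 6805 ± 415.5 to 2544 ± 129.5 in LysMcre-labelled cells.

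Of 14 regulators of primary granule genes, 4 rose and 7 fell with G-CSF in floxed cells, against 24.1% and 24.6% of all genes. For LysMcre-labelled libraries 4 rose and 8 fell, against 31.1% and 31.6%. Medians were -0.31 and -0.51. Gfi1, Cebpa and Myb, which fell in both genotypes, are also in the promyelocyte and progenitor list, so the counts of these lists are not independent. Cebpe, a transcription factor of the promyelocyte to myelocyte step, fell from 6236 ± 598 to 1547 ± 301 normalized counts in floxed and from 5969 ± 828 to 566 ± 60.4 in LysMcre-labelled cells. Gfi1, a repressor of the same stage, fell from 512 ± 62.8 to 164 ± 19.8 and from 482 ± 29.5 to 123 ± 26.4. Cebpb, the factor of emergency granulopoiesis, rose from 2679 ± 164 to 14195 ± 1867 and from 3002 ± 300 to 28610 ± 1890. Between genotypes with G-CSF 2 regulators were higher and 7 lower, against 17.1% and 18.9% of all genes. Cebpe was lower, with a log2 difference of -1.44 (limma, adjusted p = 4.36e-07).

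Of 11 secondary granule genes, 1 rose and 6 fell with G-CSF in floxed cells, against 24.1% and 24.6% of all genes. For LysMcre-labelled libraries 1 rose and 8 fell, against 31.1% and 31.6%. Medians were -0.47 and -0.89. Ltf, lactoferrin, went from 242943 ± 28101 to 73096 ± 13022 normalized counts in floxed cells, and Camp, cathelicidin, from 56997 ± 7832 to 18893 ± 2876. Between genotypes with G-CSF 9 of the 11 were lower and 1 higher, against 18.9% and 17.1% of all genes. The response to G-CSF differed for 6, all more negative in LysMcre-labelled cells, against 11.5% of all genes. Of 7 tertiary granule genes 3 rose and 3 fell in each genotype. The shares of all genes were again 24.1% and 24.6% in floxed and 31.1% and 31.6% in LysMcre-labelled cells. Retnlg fell from 155856 ± 7098 to 62861 ± 5990 in floxed and from 146189 ± 11661 to 17215 ± 588 in LysMcre-labelled cells.

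Relatives and listed neighbours of the 7 genes numbered 15 with a measured level. Of these 6 rose and 2 fell with G-CSF in floxed cells, against 24.1% and 24.6% of all genes. For LysMcre-labelled libraries 5 rose and 4 fell, against 31.1% and 31.6%. Medians were 0.29 and 0.11. Ctsl, cathepsin L, rose from 419 ± 60.1 to 1709 ± 100 normalized counts in floxed and from 451 ± 62.1 to 4795 ± 144 in LysMcre-labelled cells. Ms4a6d and Ms4a4a, of the same family as Ms4a3, rose in floxed cells by 1.97 and 1.75 on the log2 scale (limma, adjusted p = 0.000205 and 0.000521). Epx, the eosinophil peroxidase gene near Mpo, was at 91.1 to 261 in the 12 libraries and was called in no comparison.

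The genes whose pattern over the 12 libraries was most like each member were ranked by the root-mean-square difference of log2 values, each gene centred on its own mean, among 9707 candidates. Ms4a3 was nearest to Prtn3 and Prtn3 nearest to Ms4a3, at 0.158. Plppr3 and Ctsg came next for Prtn3, at 0.182 and 0.191, and Prtn3 and Dio2 were nearest to Ctsg, at 0.191 and 0.202. Elane was nearest to Kif20b, Knl1 and Igfbp4 at 0.183 to 0.202; Kif20b and Knl1 are genes of cell division. Mpo was nearest to Gria3, Rassf8 and Sgf29 at 0.135 to 0.181, and no other member was among its 3 nearest. Ctsc was nearest to Ly9, Tmem106a and Apobec3 at 0.139 to 0.192. Prss57 was nearest to Acad12, Ovgp1 and Wbp1 at 0.150 to 0.157, and its distance to the other members was 0.706 for Mpo and 1.72 for Ctsc at the extremes. Ovgp1 averaged 359 ± 36.3 and 400.1 ± 31.3 normalized counts without G-CSF and 238 ± 15.6 and 122 ± 8.94 with it. The libraries that set these distances are the same for every gene, so they describe likeness in this table only.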

How the data were processed

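RNA of 12 libraries in 4 groups of 3 was analysed from 1 table. Its values are a signal unit deposited by the authors, each gene's count over its library's size factor, as read from the values; every value gave whole reads within 0.01 of a read. Per the submitters' processing notes the reads were placed on mm10. The aligner, the counting tool, the gene models and the strandedness of the counting were not given in the sources used here. The lowest row total was 121 reads, 2 rows shared a name, and 2 columns without a sample held no values. For replicate 2 of the untreated LysMcre-labelled cells the column name ends in 3, and the number in the title was followed.

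After log2(value + 1) and removal of the 20 rows averaging under 10, the 4 groups were fitted together in limma 3.58.1 (R 4.3.3, trended prior, 8 residual degrees of freedom). Two-sided p-values of the 5 comparisons were adjusted by Benjamini-Hochberg over the 13915 genes tested, and 0.05 was the threshold. Fold changes on this scale understate changes of low genes. Alternatives were edgeR 4.0.16 and DESeq2 1.42.0 on the recovered reads, pseudocounts of 0.5 and 10, filters, equal totals, other scalings, replicate blocks, and leaving out each library. The scripts were tested on simulated data. Gene models came from GENCODE M21, which matched 13513 rows.

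Members and lists were chosen with earlier results of these data known. Some genes are in more than 1 list, Serpinb1a and Itgam among them, so the lists are not independent of each other. Named genes were the 7 members, Socs3 and Lyz2, and from each list up to 3 genes per comparison (2 for the difference of responses) with the largest called difference and a higher group averaging 50 or more. Genes named for likeness were the 3 nearest to each member, without numbered predicted genes and Riken clones. Some genes that these rules or the marker lists name are not reported here. Epx, Fcnb, Kit, Mki67, Tk1, Fstl3, Plppr3, Ptbp1, Bsg, Kiss1r and the neutrophil markers were named after their values were seen. So were Cebpa, Hmgn2, Ighm, Myb and Prss34.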

Additional observations from a re-analysis of the deposited data

Results flagged for a closer look

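The response of Prss57 to G-CSF differed between the genotypes by a test of the difference itself. It was -1.24 on the log2 scale, as LysMcre-labelled minus floxed (limma interaction term, adjusted p = 0.00019), and the 3 LysMcre-labelled libraries with G-CSF were all below the 3 floxed ones. Of all genes 22.4% were called for this term, and 45.5% had groups without overlap between genotypes with G-CSF. Fstl3, which overlaps Prss57 on the other strand, had a difference of responses of -1.29, and how many reads the pair shares was not tested.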

How the results depend on the processing

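Over the members' values and alternatives, 788 of 819 kept their direction and their side of the threshold, 10 newly passed, 2 no longer passed and 19 turned in direction. Leaving out a library outside the compared groups cannot move the log2 difference, so the direction of part of the 819 was fixed in advance. With one library left out at a time, the members called ranged from 0 to 0 for genotype without G-CSF, 1 to 1 for genotype with G-CSF, 5 to 7 for G-CSF in floxed cells, 5 to 6 in LysMcre-labelled cells and 1 to 2 for the difference of responses; all genes called ranged from 9 to 21, 4285 to 5030, 6121 to 6904, 8124 to 8847 and 2669 to 3142. DESeq2 called 28 genes for genotype without G-CSF, against 16. Without untreated floxed replicate 3, alone or together with treated floxed replicate 1, the genotype difference without G-CSF turned to -0.12 for Mpo, -0.22 for Elane, -0.11 for Prtn3, -0.14 for Ctsg, -0.0061 for Prss57 and -0.25 for Ms4a3. Without untreated floxed replicate 3, G-CSF in floxed cells gave -0.014 for Mpo, and the difference of responses gave 0.025 for Ctsg and 0.033 for Ms4a3. The genotype difference without G-CSF was -0.15 and -0.081 for Ctsc without replicate 1 of floxed or LysMcre-labelled cells, and -0.013 for Prss57 without LysMcre-labelled replicate 3. With G-CSF, Ctsg was 0.042 without floxed replicate 2 and -0.37 without floxed replicate 1. Without untreated floxed replicate 2 the genotype difference without G-CSF was 0.45 for Mpo, 0.38 for Elane, 0.39 for Prtn3, 0.46 for Ctsg, 0.17 for Ctsc, 0.17 for Prss57 and 0.34 for Ms4a3, G-CSF in floxed cells gave 0.56 for Mpo, and the difference of responses was -0.57 for Ctsg and -0.56 for Ms4a3. The removal of both libraries was chosen after seeing the data and by the members' own levels; 6 members and 4483 genes, 32.2% of all, were then called for genotype with G-CSF. At equal library totals the median of all genes moved by -0.12, -0.09, -0.26 and -0.17 in the comparisons with G-CSF, and 28.2, 38.5, 31.2 and 23.0% of calls were higher against 47.5, 49.5, 49.6 and 48.6%. Normalized counts totalled 20503126 to 21831163 per library without G-CSF and 22050376 to 25807054 with it, and this scaling removes that difference from every gene. Why the totals differ was not tested. With a replicate block, the members called were 0, 1, 6, 5 and 1 and the genes called 16, 4892, 6673, 8692 and 2967. Same-numbered libraries correlated by -0.178 to 0.321, over 0.1 in 4 of 18 pairs. Only 1 library was closest to its own number in every other group. Most of those pairs cross genotypes, so they cannot decide whether a number marks the same mouse in both treatments. The main fit did not pair libraries by number, and the labels give no pairing within a genotype. Prss34, a basophil marker, read 508, 3410 and 2107 normalized counts in untreated floxed replicates 1, 2 and 3. With G-CSF it read 648, 3166 and 2075. In LysMcre-labelled cells it read 2169, 2280 and 2778 without and 1973, 1833 and 1780 with G-CSF. Ighm was highest in replicate 1 of the LysMcre-labelled cells in both treatments, at 14393 and 14076. What a number stands for was not tested. Between treatments of one genotype the correlations were 0.321, 0.199 and 0.061 in floxed and 0.214, -0.032 and 0.030 in LysMcre-labelled cells. A replicate block within each genotype, chosen after seeing the data, called 6, 5 and 1 members and 6835, 8861 and 3141 genes for G-CSF in floxed cells, in LysMcre-labelled cells and for the difference of responses. It cannot give the genotype comparisons. The fit of only the compared groups gives no difference of responses. Depth limits Prss57 most, at 61 to 70 reads where it was lowest.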
